A study of Mus musculus with 12 samples.

Results

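The 37 genes described here encode glutamate receptors of the AMPA, kainate, NMDA, delta and metabotropic classes, a protein that binds delta receptors, and the DLG, DLGAP, SHANK and HOMER scaffolds of the postsynaptic density. They were taken by gene symbol from the 34193 named rows of a table of RNA-seq counts, and each symbol had a row. RNA came from the cerebral cortex of mice aged 8 weeks. The 6 control libraries had the genotype Nsd1 flx/flx; Nestin-cre -/-, and the 6 conditional knockout (cKO) libraries Nsd1 flx/flx; Nestin-cre +/-. Both groups therefore carried the loxP-flanked Nsd1 alleles, and they differed in the Cre transgene. A group with Cre and intact Nsd1 was not analysed here. Nestin-Cre acts in neural progenitors, so neurons and the glia that descend from them can both lose the gene. NSD1 is a histone methyltransferase, and the series asks how its mark on lysine 36 of histone H3 relates to DNA methylation outside CG sites in neurons. The labels call the 6 samples of each group biological replicates but name no animals, and p-values measure the spread among these libraries.

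Fast excitatory signals in the cortex pass through AMPA receptors, while NMDA receptors admit calcium when glutamate binds and the membrane is depolarised, and kainate and metabotropic receptors modulate transmission on both sides of the synapse. Beneath the postsynaptic membrane, DLG proteins bind receptor tails, DLGAP proteins bind DLG, SHANK proteins bind DLGAP, and HOMER proteins link SHANK to metabotropic receptors. Delta receptors are relatives of the ionotropic family that bind cerebellin proteins from the presynaptic side, and delphilin, the product of Grid2ip, is a delta receptor binding protein known mainly from cerebellar Purkinje cells.

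In the cKO libraries 1 of these genes rose, Grid2ip, and none fell by the adjusted test. Of the other 35 genes that were abundant enough to test, none passed an adjusted p of 0.05, and their log2 fold changes lay between -0.35 for Shank1 and 0.27 for Gria2. A difference that misses the threshold does not show equal levels, and the 95% intervals of those 35 genes reached from -0.73 (Shank1) to 0.61 (Grin2b). The test was limma on log2(normalised reads + 1), with a term for a split of the libraries that is described below, and with Benjamini-Hochberg adjustment over the 14397 genes whose mean reached 10 normalised reads. Over all tested genes, limma called 0.834% (120 genes, 110 higher and 10 lower in cKO libraries). At an unadjusted p under 0.05 stood 3 of 36 receptor and scaffold genes (Grid2ip, Gria2 and Grik1), a share of 8.33% beside 9.73% over all tested genes. The median log2 fold change was -0.01 over the 36 genes and -0.00069 over all tested genes, and 16 of the 36 lay above 0.

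**Figure D1:**
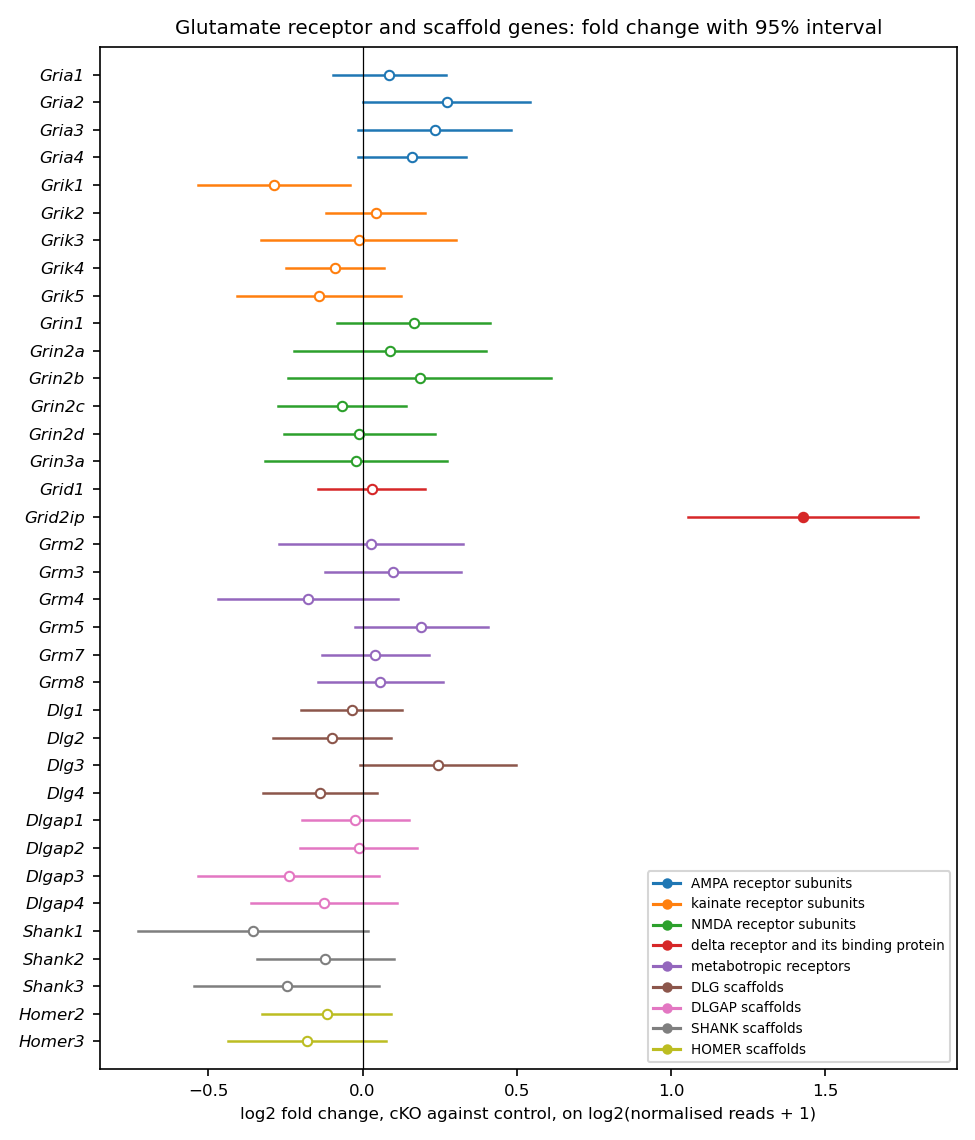
The x axis gives the log2 fold change of cKO against control on log2(normalised reads + 1), with bars for the 95% interval and 1 row for each of the 36 tested genes, coloured by class. Grid2ip, at 1.43, is the filled point and the one that passed the adjusted test, while the intervals of Gria2 and Grik1 end close to 0.

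Grid2ip has a pair of annotated start sites, and the 250 bases before each are printed because the rise of this gene is the one difference the adjusted test called, and because DNA methylation is the subject of the series. The sequences are those of RefSeq on GRCm38.p6, read 5′ to 3′ on the plus strand, with each CG dinucleotide in capitals. The first lies at chr5:143363663-143363912 and the second at chr5:143369824-143370073.
Grid2ip, start 1: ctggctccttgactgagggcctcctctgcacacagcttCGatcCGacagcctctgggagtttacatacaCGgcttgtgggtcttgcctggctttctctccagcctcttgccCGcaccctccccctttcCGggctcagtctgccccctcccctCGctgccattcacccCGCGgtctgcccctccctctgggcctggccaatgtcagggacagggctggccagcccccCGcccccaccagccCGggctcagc
Grid2ip, start 2: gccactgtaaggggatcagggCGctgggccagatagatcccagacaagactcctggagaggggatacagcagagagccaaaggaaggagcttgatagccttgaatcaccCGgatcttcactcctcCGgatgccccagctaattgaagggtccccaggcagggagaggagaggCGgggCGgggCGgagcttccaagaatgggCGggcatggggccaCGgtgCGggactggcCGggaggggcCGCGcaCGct
The first window holds 10 CG dinucleotides and the second 13. A CG, searched as the letters CG, which read the same on both strands, occurs in 92.1% of the 32851 windows of this length in the table, with a median of 6. As many as in the first Grid2ip window or more occur in 37.8% of windows, and as many as in the second or more in 31.5%. Windows were found for 25 of the 37 genes, whose richest windows held from 2 to 42 CG, with a median of 16, so neither Grid2ip window is rich in CG beside those of the other receptor and scaffold genes. The series asks about methylation outside CG sites, which these counts of CG do not describe. Methylation was not measured in these libraries.

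The levels of Grid2ip were low in every library. In control libraries 1 to 6 the gene had 32.1, 27.3, 31.0, 47.0, 33.6 and 36.3 normalised reads. In cKO libraries 1 to 6 it had 104, 106, 87.1, 59.3, 94.7 and 121. All 6 cKO libraries lay above the highest control library, with control 4 the highest of its group and cKO 4 the lowest of its own. Of the 36 genes, 1 (Grid2ip) had no overlap between the groups, beside 1.01% of all tested genes. The mean rose from 34.5 ± 6.78 (SD, n = 6) to 95.5 ± 21.2 normalised reads, 2.77 times the control level, and these values rest on 184 whole reads in all control libraries and 677 in all cKO libraries. The log2 fold change was 1.43 (SE 0.18, 95% interval 1.06 to 1.80, limma adjusted p = 0.000315). The authors' deposited table lists a log2 fold change of 1.51 for Grid2ip (SE 0.20, adjusted p = 2.8e-11 by DESeq2), and it called 0.906% of its genes at the same threshold. Per kilobase of transcript, Grid2ip stood at place 36 of the 37 genes in control libraries, at 8.93 ± 1.76 normalised reads per kb, and at 24.7 ± 5.48 in cKO libraries, which is still below the control level of the next gene, Grin2d, at 36.1 ± 3.25.

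Grid1, a delta receptor gene, and the neighbours of Grid2ip were also measured. Grid1 ranged from 909 through a median of 1014 to 1310 normalised reads in control and from 968 through 1081 to 1216 in cKO libraries. The ranges of Grid1 overlapped, and its log2 fold change was 0.03 (SE 0.08, limma adjusted p = 0.899). The cerebellins are ligands of delta receptors. Cbln1 had a log2 fold change of 0.03, Cbln2 of 0.19 and Cbln4 of 0.31 (SE 0.13, limma adjusted p = 0.476), so that none of the 3 passed. None of the 8 tested genes that lie nearest to Grid2ip in the RefSeq order of GRCm38.p6, 4 on each side, was called either. Their log2 fold changes ran from -0.59 for 0610040B10Rik to 0.18 for Cyth3, with Rac1 at 0.05 and Daglb at 0.01 (limma adjusted p from 0.525 to 0.962).

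Since delphilin is known mainly from the cerebellum, markers of cerebellar granule and Purkinje cells were read in the same libraries. All 8 had a row, and their summed level ranged from 379 to 737 normalised reads in control and from 578 to 714 in cKO libraries. The sum was carried by Car8 and Slc1a6, at 401 ± 157 and 116 ± 20.9 normalised reads in control and 477 ± 72.1 and 130 ± 23.6 in cKO libraries. The defining granule cell gene Gabra6 had 4 reads in all control libraries and none in the cKO libraries, and the Purkinje cell gene Pcp2 had 4 and 2. Barhl1 had 2 reads in each group, so that these 3 markers were near 0 in both. Fat2, Cbln3 and En2 were detected at low levels. They had 80, 53 and 38 reads in all control libraries and 87, 50 and 37 in all cKO libraries. Grid2ip shares exonic bases with an annotated gene on the other strand, Gm20635 (480 bases in GENCODE on GRCm38), and no source used here says whether reads were counted by strand, so reads of the pair cannot be told apart.

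The libraries held 10.5 to 21.1 M reads in control and 14.6 to 27.0 M in cKO, so that 3 reads are worth 1.98 to 5.64 normalised reads. All 8 markers of cortical excitatory neurons were detected, with summed levels of 32544 to 47086 normalised reads in control and 36555 to 42662 in cKO libraries. Nsd1 itself had 4235 ± 850 and 3251 ± 299 normalised reads (log2 fold change -0.36, limma adjusted p = 0.383), a count over the whole gene that includes exons outside the loxP sites. Libraries 1 to 3 of each group had Y-linked reads (4 genes) and libraries 4 to 6 had none above the threshold of 100 normalised reads, which disagrees with the labelled sex of the same-numbered sample in 8 of 12 cases. The split is called by these reads below, and was a term of the test. Mitochondrial ribosomal RNA took 14.2% of reads in control 4 and 11.5% in control 5, beside 1.46% to 6.00% in the other 10 libraries. cKO 4 stood apart by base composition: over 14134 tested genes, the deviation from each gene's mean followed the GC content of its transcript with r = -0.41, and in the other libraries r lay between -0.16 and 0.24. Class counts below are given with and without these 3 libraries, as are many of the genes whose values they moved. Leaving out all 3 was chosen after seeing the data. In bulk RNA, fewer cells of a type and less RNA per cell cannot be told apart.

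Levels between genes were compared per kilobase of the longest annotated transcript. Scaffolds took the first places: in control libraries Shank1, which sits deep in the postsynaptic density, had 3155 ± 654 (SD, n = 6) normalised reads per kb, Dlg4, which encodes PSD-95, had 2832 ± 154, and Dlgap3 had 2484 ± 271. These neighbours in the order overlap within their spread. Grin1, the NMDA subunit that every NMDA receptor contains, followed at 1710 ± 376, and Dlgap1 at 1624 ± 137. Gria1 was the highest AMPA subunit at 1154 ± 129, Grm3 the highest metabotropic receptor at 928 ± 147, and Grid1 had 187 ± 24.8. At the other end stood Homer3 at 45.4 ± 4.47, Grin2d at 36.1 ± 3.25, Grid2ip, and Grin3b. Grin3b, an NMDA subunit, fell below the abundance filter and was not tested, with 15 reads in all control libraries and 11 in all cKO libraries.

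**Figure D2:**
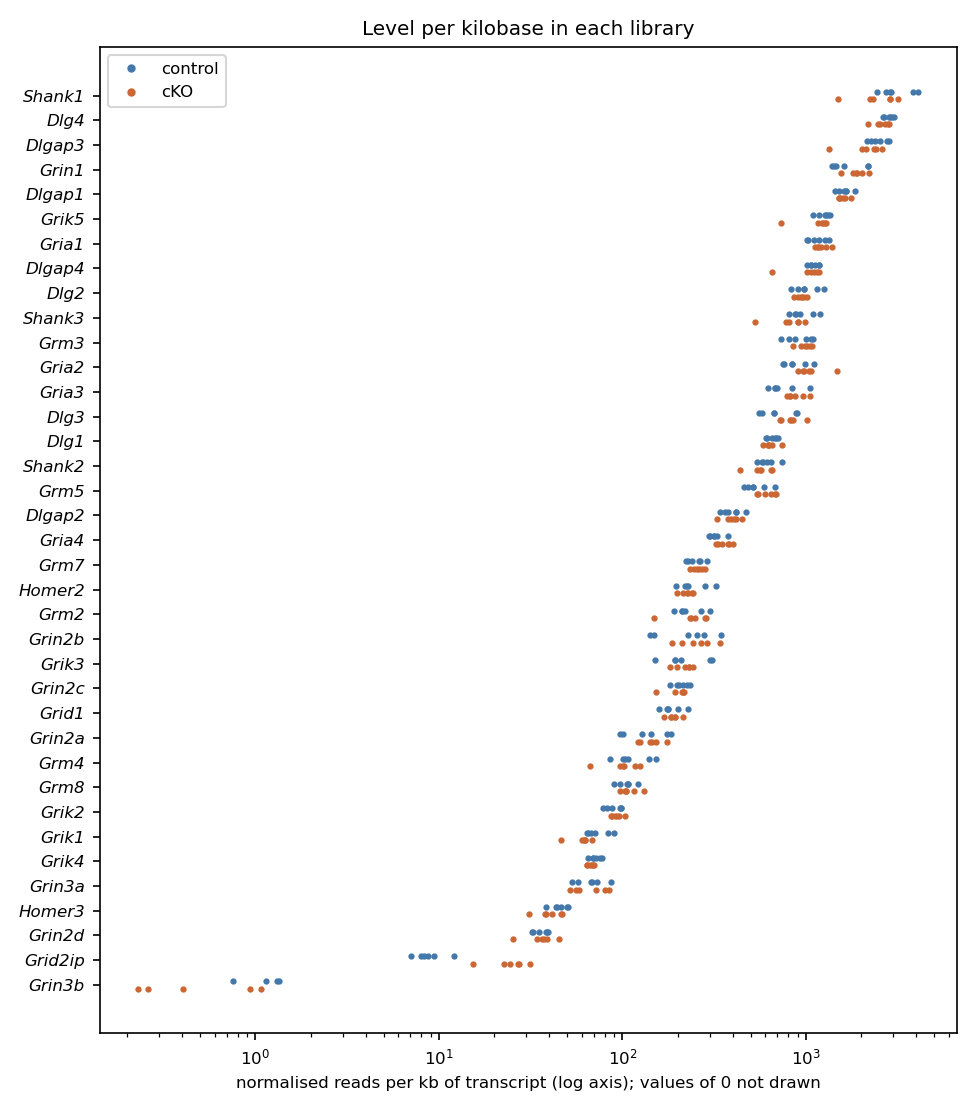
Each point is 1 library, with the level in normalised reads per kb of transcript on a log x axis and the 37 genes in order of their control mean. The ranges of control and cKO points overlap for every gene apart from Grid2ip, where all cKO points lie to the right of the control points. For Grik1, 5 cKO points lie to the left of the control points, and cKO 4 lies among them.

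The AMPA receptor subunits form the channel of fast excitatory transmission, and 4 of 4 had a log2 fold change above 0, with a median of 0.20, though none passed the adjusted test. Gria2, whose edited subunit keeps calcium out of the channel, had the lowest, median and highest control values of 7798, 8707 and 11463 normalised reads. The cKO values were 9346, 10433 and 15380. All 6 cKO libraries lay above the control mean, and 1 of them, cKO 4, lay above the highest control library. The mean was 9139 ± 1455 in control and 11090 ± 2185 in cKO libraries, which gave a log2 change of 0.27 (SE 0.13, limma adjusted p = 0.508). It was 0.16 without cKO 4, 0.15 without control 4 and 5, and 0.08 without the 3 libraries.

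Gria1, the subunit that is added to synapses in many forms of plasticity, ranged from 5614 through a median of 6337 to 7386 normalised reads in control and from 6237 through 6597 to 7659 in cKO libraries. The groups overlapped over most of their range. The means of 6402 ± 715 and 6783 ± 531 gave a log2 change of 0.09 (SE 0.09, limma adjusted p = 0.698). Gria3 and Gria4, the other pore subunits of the class, had log2 fold changes of 0.23 (SE 0.12) and 0.16 (SE 0.08), with limma adjusted p of 0.520 and 0.525, and of 0.10 and 0.10 without the 3 libraries. The class was also read within the split by Y-linked reads. The median over the 4 genes was 0.01 in libraries with Y-linked reads and 0.38 in libraries without them. For none of the 4 did this difference pass (limma adjusted p from 0.562 to 0.611). Control 4 and 5 and cKO 4 are all libraries without Y-linked reads, and the AMPA subunits together deviated from their mean by -0.25, -0.26 and 0.36 (log2) in them. Without the 3 libraries, 3 of 4 AMPA subunits lay above 0, with a median of 0.09, and Gria1 stood at -0.03.

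The Gria1/Gria2 ratio within each library does not depend on how the library was scaled. Scaling does not touch base composition, in which the transcripts differ, at 48.5% GC for Gria1 and 36.8% for Gria2. No GC trend was removed from the ratios, and the part of base composition in them was not tested. In control libraries it was 0.644 at the lowest, 0.712 at the median and 0.747 at the highest. In cKO libraries it was 0.498, 0.633 and 0.691. The cKO values were lower on the whole, with overlap, and cKO 4 was the lowest by a wide gap. The mean log2 ratio differed by -0.19 (two-sided exact permutation p = 0.013, adjusted over 3 ratios 0.039, n = 6 in each group). The difference was -0.04 in libraries with Y-linked reads and -0.33 in those without. The call was lost on leaving out any 1 of control 1, 3, 4, 5 or 6 or of cKO 1, 4, 5 or 6 (differences from -0.22 to -0.12 over all libraries left out in turn, exact permutation, adjusted p from 0.0195 to 0.0779). It did not pass without cKO 4 (-0.12, exact permutation, adjusted p = 0.0649), without control 4 and 5 (-0.17, adjusted p = 0.214, exact), without the 3 libraries (-0.10, adjusted p = 0.262, exact) or when libraries were permuted within the split (-0.19, adjusted p = 0.09, exact).

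Kainate receptor subunits lay below 0 in 4 of 5 cases, with a median log2 fold change of -0.09. Without cKO 4 the median was -0.03, without control 4 and 5 it was -0.06, and without the 3 libraries 3 of 5 lay below 0 with a median of -0.06. Grik1, which encodes GluK1, a subunit found chiefly in interneurons of the forebrain, had the lowest, median and highest values of 233, 253 and 331 normalised reads in control and 169, 227 and 249 in cKO libraries. In 5 of 6 cKO libraries the value lay below the lowest control library, and cKO 4 was the exception. The mean was 269 ± 40.2 in control and 220 ± 27.0 in cKO libraries, which gave a log2 change of -0.29 (SE 0.12, 95% interval -0.53 to -0.04, limma adjusted p = 0.476). It was -0.12 in libraries with Y-linked reads and -0.45 in those without (limma adjusted p of the difference = 0.615), -0.13 without control 4 and 5, and -0.17 without those and cKO 4. The 7 markers of GABAergic interneurons summed to 9660 to 13819 normalised reads in control and 10003 to 13127 in cKO libraries, overlapping throughout. Single markers went both ways, and none was called by limma. Sst, Pvalb and Vip had log2 fold changes of -0.26, -0.14 and -0.11. Gad1, Gad2, Slc32a1 and Lhx6 had 0.16, 0.19, 0.10 and 0.16. The part of these cells in the level of Grik1 was not tested.

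Grik5, which encodes a kainate subunit that needs a partner subunit to form a channel, was the most abundant kainate gene per kilobase. Its values were 4099, 4812 and 5066 normalised reads in control and 2735, 4608 and 4839 in cKO libraries (lowest, median, highest). The low value was that of cKO 4, and the other cKO libraries lay inside the control range. The log2 fold change was -0.14 (SE 0.13, limma adjusted p = 0.666), and 0.03 without control 4 and 5 and cKO 4. Grik2, Grik3 and Grik4 had log2 fold changes of 0.04, -0.01 and -0.09.

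NMDA receptor subunits were divided evenly, with 3 of 6 tested genes above 0 and a median log2 fold change of 0.04, and this division rested on single libraries and on the processing. Without cKO 4, 6 of 6 lay above 0 (median 0.08), without control 4 and 5, 5 of 6 (median 0.08), and without the 3 libraries, 6 of 6 (median 0.11). After the length trend of each library had been taken out, 1 of 6 lay above 0 (median -0.06). Grin1, the obligatory subunit, had values of 5949, 6568 and 9347 normalised reads in control (lowest, median, highest) and 6633, 8070 and 9406 in cKO libraries. Control libraries fell into high values in control 1 and 2 and low values in the other 4, and the cKO libraries lay across the gap between them. The log2 fold change was 0.17 (SE 0.12, limma adjusted p = 0.597).

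Grin2b and Grin2a encode the subunits that set channel kinetics, with Grin2b ahead early in life and Grin2a rising with age. Grin2b had the widest spread of the 36 tested genes in control libraries, with a coefficient of variation of 33.3% and values of 3405, 5802 and 8248 normalised reads (lowest, median, highest). In cKO libraries it had 4455, 6170 and 8195. The groups overlapped almost completely. The log2 fold change was 0.19 (SE 0.20, limma adjusted p = 0.717), and that of Grin2a was 0.09 (SE 0.15). Without control 4 and 5 these were 0.32 for Grin2b and 0.16 for Grin2a, and without those and cKO 4 they were 0.28 and 0.14. Neither gene passed in those settings. The Grin2b/Grin2a ratio of normalised reads, not corrected for length, was 2.39, 2.76 and 3.05 in control and 2.49, 2.94 and 3.20 in cKO libraries (lowest, median, highest). The mean log2 ratio differed by 0.10 (two-sided exact permutation p = 0.271, adjusted 0.271), which is less than the SD of 0.15 among the control libraries. That test and that SD take no account of the library numbers. At every number the ratio of the cKO library lay above that of the same-numbered control library. The numbers were not taken as pairs, for the reason given at the end, and no paired test was run. Grin2c, Grin2d and Grin3a had log2 fold changes of -0.07, -0.01 and -0.02.

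Metabotropic receptors, which signal through G proteins, lay above 0 in 5 of 6 cases, with a median log2 fold change of 0.05, and in 4 of 6 without the 3 libraries (median 0.08). Grm5, the postsynaptic receptor of this class that HOMER proteins bind, had values of 3715, 4143 and 5436 normalised reads in control (lowest, median, highest) and 4341, 4995 and 5502 in cKO libraries. All but 1 of the cKO values lay inside the control range, with cKO 4 just above it. The log2 fold change of Grm5 was 0.19 (SE 0.10, limma adjusted p = 0.527), and 0.12 without the 3 libraries. Grm3, a receptor that astrocytes also carry, had 2831 ± 448 normalised reads in control and 3006 ± 258 in cKO libraries (log2 fold change 0.10, limma adjusted p = 0.713), and its log2 fold change was 0.23 without the 3 libraries. Of 6 astrocyte markers, 1 was called, Aqp4, at 0.53 (SE 0.10, limma adjusted p = 0.00973). Gja1 stood at 0.28, Sox9 in the other direction at -0.33, and Gfap, Aldh1l1 and Slc1a3 at 0.24, 0.06 and 0.03, none of them called. The 6 markers summed to 18024 to 25374 normalised reads in control and 21724 to 27031 in cKO libraries. The part of these cells in the level of Grm3 was not tested. Of the presynaptic receptors that restrain release, Grm2, Grm4, Grm7 and Grm8 had log2 fold changes of 0.03, -0.18, 0.04 and 0.06.

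Among the scaffolds, 12 of 13 had a log2 fold change below 0, with a median of -0.12, beside 8 of 22 tested receptor subunits and a median of 0.04. None of the 13 passed the adjusted test, and none had an unadjusted limma p under 0.05. The count rested on a few libraries: 11 of 13 lay below 0 without cKO 4 (median -0.08), 7 of 13 without control 4 and 5 (median -0.00088), and 5 of 13 without the 3 libraries (median 0.01). After the same step for transcript length, 12 of 13 scaffolds stayed below 0, while 9 of 22 receptor subunits were above 0 in place of 14 (median -0.02). Dlg3 was the scaffold above 0.

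**Figure D3:**
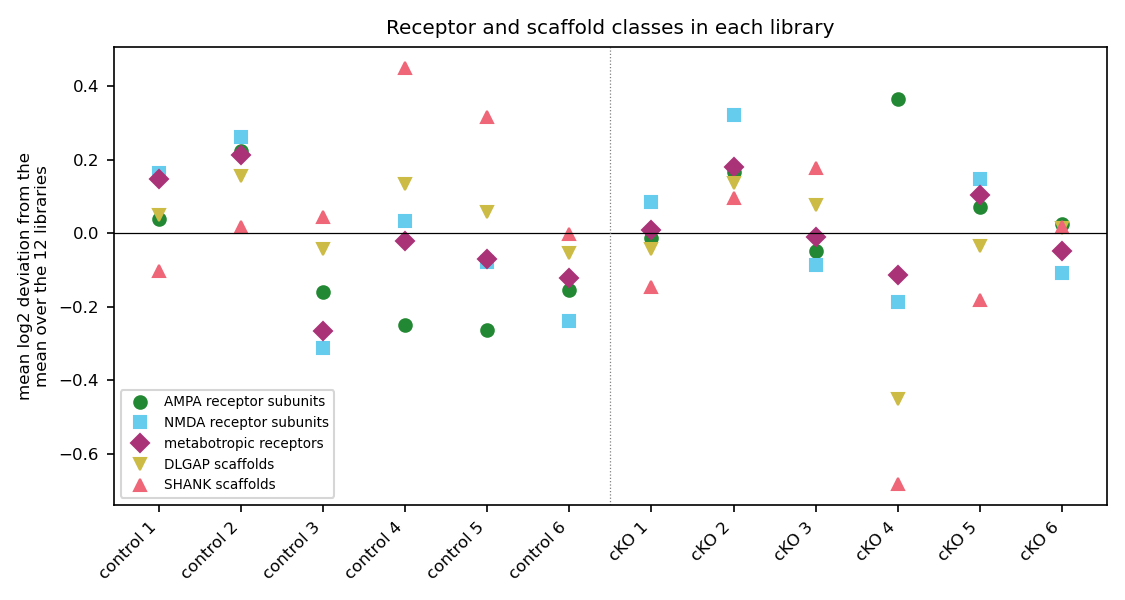
The y axis gives the mean log2 deviation of each class from its mean over the 12 libraries, with 1 column for each library and control to the left of the dotted line. SHANK scaffolds reach 0.45 in control 4 and -0.68 in cKO 4, where the AMPA subunits lie at -0.25 and 0.36.

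SHANK proteins are the master scaffolds that tie receptor complexes to actin. Shank1 had values of 24034, 28537 and 40116 normalised reads in control (lowest, median, highest) and 14657, 25529 and 31037 in cKO libraries. The highest values were those of control 4 and 5 and the lowest that of cKO 4, and the remaining libraries of both groups overlapped. The mean was 31001 ± 6421 in control and 24531 ± 5963 in cKO libraries, which gave a log2 change of -0.35 (SE 0.18, limma adjusted p = 0.520). It was -0.19 without cKO 4 and -0.04 without the 3 libraries. Shank3, haploinsufficient in Phelan-McDermid syndrome, had 7087 ± 1093 and 6036 ± 1203 normalised reads (log2 fold change -0.25, SE 0.14, limma adjusted p = 0.544), and Shank2 had -0.12 (SE 0.10). Without the 3 libraries these were 0.02 and 0.06. The Shank3/Shank1 ratio of normalised reads was 0.214, 0.232 and 0.247 in control and 0.234, 0.244 and 0.271 in cKO libraries (lowest, median, highest). It differed by 0.11 on the log2 scale (two-sided exact permutation p = 0.0693, adjusted 0.104).

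**Figure D4:**
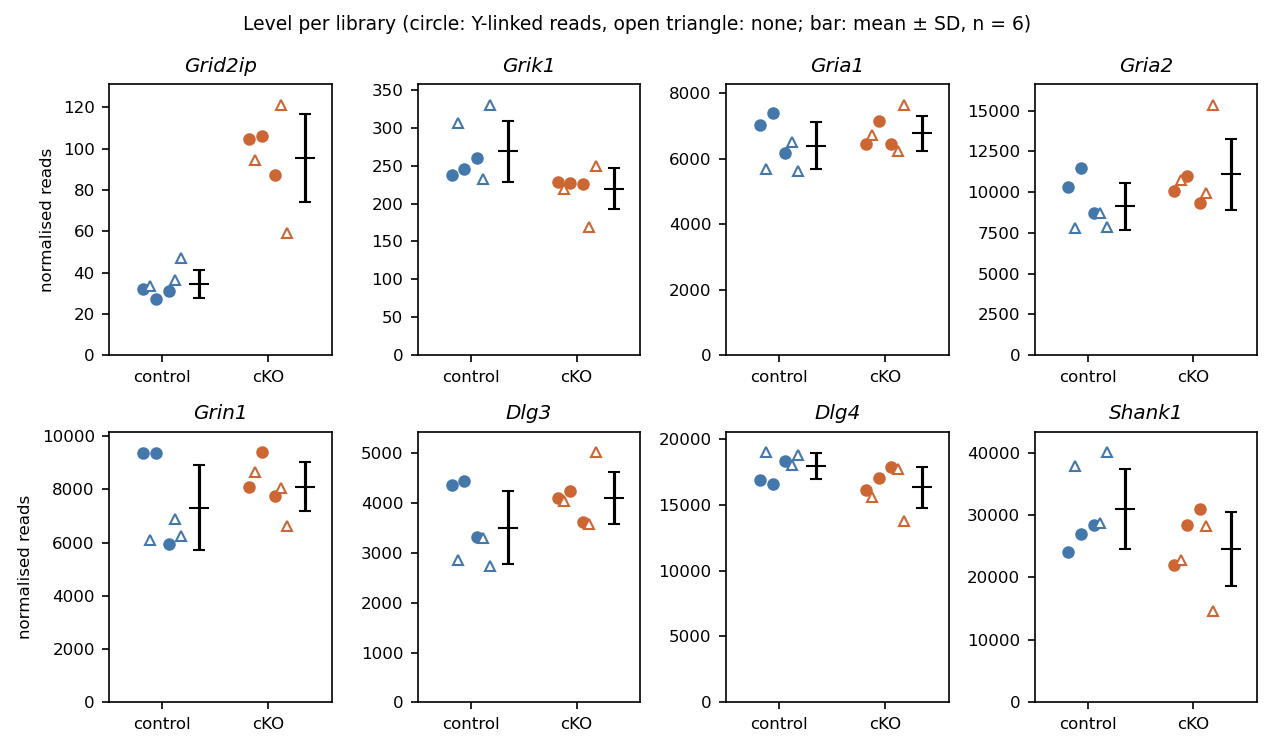
Points are the normalised reads of 8 genes in each library, with circles for libraries with Y-linked reads and open triangles for those without, and bars for the mean ± SD (n = 6). Grid2ip separates the groups, while Shank1 in cKO 4, at 14657, and Gria2 in the same library, at 15380, lie away from the other cKO points.

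The DLG proteins bind receptor tails directly. Dlg4 had values of 16589, 18143 and 19002 normalised reads in control (lowest, median, highest) and 13741, 16552 and 17833 in cKO libraries. In 3 of 6 cKO libraries Dlg4 lay below the lowest control library, and the rest lay inside the control range. The mean was 17917 ± 977 in control and 16319 ± 1547 in cKO libraries, which gave a log2 change of -0.14 (SE 0.09, limma adjusted p = 0.568). It was -0.09 without cKO 4 and -0.05 without the 3 libraries. Dlg3, which encodes SAP102, ranged from 2741 through a median of 3305 to 4440 normalised reads in control and from 3569 through 4071 to 5025 in cKO libraries. Its log2 fold change was 0.24 (SE 0.12, limma adjusted p = 0.519), and 0.06 without the 3 libraries. Dlg1 and Dlg2, which encode SAP97 and PSD-93, had -0.03 and -0.10.

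Of the DLGAP proteins, the layer between DLG and SHANK, Dlgap3 was both the most abundant per kilobase and the one with the largest difference. Its values were 9001, 10325 and 11864 normalised reads in control (lowest, median, highest) and 5607, 9421 and 10932 in cKO libraries. The lowest of all was cKO 4, and the others overlapped. The log2 fold change was -0.24 (SE 0.14, limma adjusted p = 0.545), and -0.01 without the 3 libraries. Dlgap1, Dlgap2 and Dlgap4 had log2 fold changes of -0.02, -0.01 and -0.13, that of Dlgap4 being -0.01 without cKO 4.

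The HOMER proteins join SHANK to metabotropic receptors and to calcium stores. Homer2 ranged from 2144 through a median of 2497 to 3546 normalised reads in control and from 2176 through 2484 to 2656 in cKO libraries, with control 4 and 5 above all others. Its log2 fold change was -0.12 (SE 0.10, limma adjusted p = 0.650), and 0.02 without the 3 libraries. Homer3 had 118 ± 11.7 normalised reads in control and 105 ± 15.4 in cKO libraries, which gave a log2 change of -0.18 (SE 0.12, limma adjusted p = 0.579). It was -0.10 without cKO 4, and the gene shares 713 exonic bases with Ddx49 on the other strand, whose mean was 446 normalised reads. Homer1, the most abundant HOMER gene here per kilobase and not among the 37, stood at 0.18 (limma adjusted p = 0.574).

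The genotype effect was also set against the split of the libraries, in a model with a difference term. In libraries with Y-linked reads the 13 scaffolds lay between -0.07 and 0.08, the median being 0.03, and 6 of them lay below 0. In libraries without them they lay between -0.74 and 0.49, with a median of -0.28 and 12 below 0. The effects were 0.03 and -0.74 for Shank1, 0.06 and -0.55 for Shank3, 0.03 and -0.51 for Dlgap3, and -0.01 and 0.49 for Dlg3, in which the limma adjusted p of the difference was 0.562 each time. An unadjusted p of the difference under 0.05 was found for 7 of 36 genes (19.4%), beside 8.77% of all tested genes, with Gria2, Grin2c and Shank2 the other three. No difference passed the adjusted limma test, among these genes or among the 14397 tested, of which 1263 had an unadjusted p under 0.05. The libraries that stood apart, control 4 and 5 and cKO 4, all belong to the set without Y-linked reads. There the scaffolds together deviated from their mean by 0.20, 0.12 and -0.31 (log2), and in the other libraries of that set, control 6, cKO 5 and cKO 6, by -0.01, -0.10 and 0.01. Regional markers also differed along the split. The 5 striatal markers had medians of 0.32 with Y-linked reads (0 below 0) and -0.41 without (5 below 0). The medians were 0.04 and -0.10 for thalamic, -0.0037 and 0.27 for hippocampal, and -0.08 and 0.07 for cortical excitatory markers. The part of tissue composition in the scaffold values was not tested. Grid2ip was higher in both sets, by 1.69 (SE 0.24, limma adjusted p = 0.00494) with Y-linked reads and 1.17 (SE 0.24, adjusted p = 0.0442) without them, and these effects differed by 0.51 (SE 0.34, limma adjusted p = 0.605).

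Base composition moved with the values of cKO 4. This library had the lowest value of the 12 for 13 of the 36 genes, 8 of them scaffolds, and the highest for 9. Over the 36 genes its deviation from the mean followed GC content with r = -0.82, while r in the other libraries lay between -0.30 and 0.48. Gria2, at 36.8% GC, stood at the high end, and Shank1, at 61.4%, Shank3, at 62.4%, and Dlgap3, at 63.9%, at the low end. Across all 36 genes, the log2 fold change of cKO against control correlated with GC content at r = -0.14. Across the 35 genes other than Grid2ip, r was -0.56. Both values include cKO 4 and describe genes that share the same 12 libraries. Removing a linear GC trend from each library, chosen after seeing the data, left 11 of 13 scaffolds below 0 with a median of -0.11. That trend was fitted over 14134 tested genes, with a slope in cKO 4 of -0.28 (log2) per 10% GC. Gria2 and Shank1 deviated by 0.63 and -0.88 in cKO 4, so the step can leave part of the trend among these genes in place. Shank1 stood at -0.32 after it. The part of base composition in the differences between groups was not tested.

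**Figure D5:**
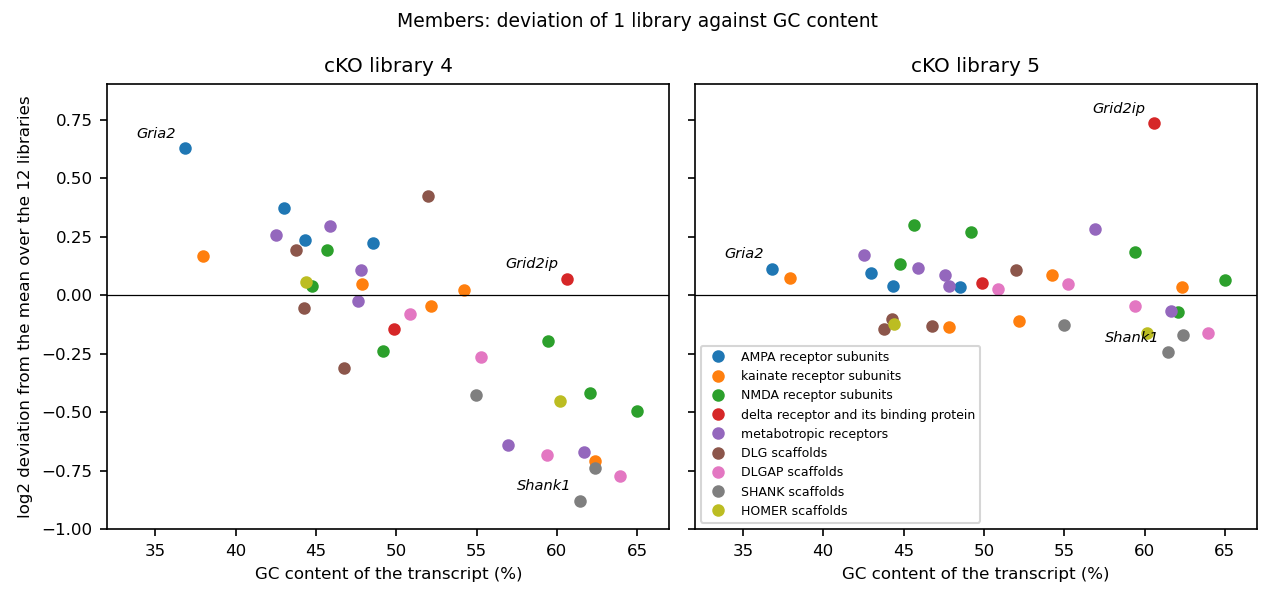
The y axis gives the log2 deviation of each of the 36 genes from its mean over the 12 libraries and the x axis the GC content of its transcript in percent, for cKO 4 on the left and cKO 5 on the right. In cKO 4 the points fall from Gria2, at 36.8% GC, to Shank1, at 61.4% GC, with r = -0.82, while in cKO 5 r is -0.10.

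Further genes of the same synapses were read from lists of receptor partners, which hold 41 genes, 40 of them abundant enough to test. None was called by limma in either direction, and 2 of 40 (5.00%) had an unadjusted p under 0.05, with 25 above 0 and a median log2 fold change of 0.03. Those 2 were Cbln4 and Slc17a6, which encodes a vesicular glutamate transporter and had 530 ± 91.5 normalised reads in control and 641 ± 69.5 in cKO libraries (log2 fold change 0.28, SE 0.11, limma adjusted p = 0.457). Slc17a6 is abundant in the thalamus, and the other 4 thalamic markers summed to 582 to 742 normalised reads in control and 530 to 656 in cKO libraries, overlapping. Of the 14 auxiliary subunits of AMPA and kainate receptors, 7 lay above 0, with Cacng3 at 0.21 and Cacng7 at -0.13. Of 11 postsynaptic signalling proteins, 7 lay above 0, with Kalrn, an exchange factor of spines, at 0.14 and Tnik at 0.18. Grip1 and Pick1, adaptors that bind the tails of AMPA receptors, had log2 fold changes of -0.13 and -0.01. The transporter gene Slc1a1 had 0.25 (limma adjusted p = 0.525).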

How the data were processed

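Ribosomal-RNA-depleted total RNA of the cerebral cortex was sequenced in 12 libraries, per the labels' protocols with a strand-marking kit. Trim Galore, STAR, Bowtie and bedtools stand in the submitters' processing notes without roles, with mm9 as the mouse build. Per the file headers, the deposited values are DESeq2-normalised counts, a signal in reads that the authors scaled between libraries. Every value was a whole multiple of 1 step per library (100% within 0.01), which gave back whole reads. The deposited table also lists the authors' own log2 fold changes with their standard errors, a score (the Wald statistic) and p-values.

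Columns are named by genotype and number. As Y-linked reads disagreed with the labelled sex in 8 of 12, columns were assigned to genotype only. The main test was limma 3.58.1 (R 4.3.3) on log2(value + 1) with an intensity trend. It was two-sided, with terms for the split by Y-linked reads and genotype, and covered genes with a mean of 10 or more. Fold changes on this scale understate those of weak genes. Ratios were tested by exact permutation of 12 libraries (924 arrangements, smallest p 0.00216). Intervals cover 95%.

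Transcript length and GC content came from GENCODE on GRCm38, for 98.2% of tested genes and for all 37 described. Windows before start sites came from RefSeq on GRCm38.p6. Neither build is that of the submitters' notes.

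The 37 genes and all lists were chosen with earlier results of these data known. Genes with values by group were those called, those with an unadjusted p under 0.05, and in each of 9 classes the gene with the largest fold change and the most abundant per kilobase. Of partner and marker lists, called genes and up to 2 with the smallest p were named, and some of these are not reported here. Others (Car8, Slc1a6, Gabra6, Pcp2 and the other cerebellar markers, most interneuron markers, the remaining cerebellins and the neighbours of Grid2ip) were chosen after their values were seen. Alternatives were the pseudocount (0.5 or 5), the filter (none or 50), other scalings, edgeR 4.0.16 and DESeq2 1.42.0 on whole reads, no split term, a replicate block, a length trend, and leaving out libraries.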

Additional observations from a re-analysis of the deposited data

Results flagged for a closer look

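In 78 groups of 6 libraries (36 genes and 3 ratios, control and cKO), 7 had 1 library whose gap to the next exceeded 0.625 of the group's range, where chance flags about 1 in 20 groups. cKO 4 was that library in 5 of them. Its Gria2 level was 15380 normalised reads, beside 9346 to 11011 in the other cKO libraries. It was low for Grik5, at 2735 (others 4400 to 4839), for Grin2c, at 746 (others 949 to 1058), and for Dlgap4, at 3183 (others 4941 to 5712). Its Gria1/Gria2 ratio was 0.498 beside 0.626 to 0.691. The GC trend of this library moved with these values, and its part in them was not tested. Gria4 was high in control 2, at 2058 normalised reads (others 1619 to 1782), and Grik1 was low in cKO 6, at 169 (others 219 to 249).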

How the results depend on the processing

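Grid2ip was called in every alternative tried, and no other receptor or scaffold gene was called in any. Its log2 fold change was 1.36 to 1.58 when libraries were left out in turn (limma adjusted p up to 0.00164), 1.64 without control 4 and 5 and cKO 4, and 1.51 by both edgeR (adjusted p = 0.000194) and DESeq2 (adjusted p = 7.7e-12). Over all genes, 120 were called with the filter at 10 normalised reads, 58 with it at 50 and 150 with none, where the number of genes tested changes. The median over the receptor and scaffold genes was -0.06 to 0.03 with libraries left out in turn.

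Log2 fold changes turned sign in 33 of 504 cases under 14 settings and in 26 of 432 with 1 library left out. None crossed the threshold. Not all of these values were near 0 in the main fit, where Shank3 stood at -0.25, Grin2b at 0.19 and Grik5 at -0.14. Grin2d turned to 0.028 with quantile scaling, 0.0063 by edgeR and 0.0090 by DESeq2. Without control 4 and 5, Grin2c turned to 0.034, Grin3a to 0.064, Grid1 to -0.0066, Grm8 to -0.0067, Dlg1 to 0.010, Dlg2 to 0.013, Dlgap2 to 0.035, Shank2 to 0.024 and Homer2 to 0.028. Without those and cKO 4, which was chosen after seeing the data, Gria1 turned to -0.026, Grik5 to 0.029, Grin2c to 0.083, Grin2d to 0.050, Grin3a to 0.085, Grm8 to -0.042, Dlg2 to 0.019, Dlgap1 to 0.0057, Dlgap2 to 0.060, Dlgap4 to 0.0096, Shank2 to 0.063, Shank3 to 0.015 and Homer2 to 0.015. With a length trend removed, Grik2 turned to -0.063, Grin2a to -0.060, Grin2b to -0.013, Grid1 to -0.025 and Grm2 to -0.0086. With a GC trend removed, also chosen after seeing the data, Grik3 turned to 0.0050, Grin2d to 0.035 and Dlgap2 to 0.0077. The cause was not tested.

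Leaving out libraries in turn gave ranges across 0 for Grik3 (-0.15 to 0.083), Grin2a (-0.032 to 0.17), Grin2c (-0.11 to 0.016), Grin2d (-0.064 to 0.080), Grin3a (-0.096 to 0.069), Grid1 (-0.0040 to 0.078), Grm2 (-0.057 to 0.15), Grm7 (-0.00095 to 0.080), Dlgap1 (-0.063 to 0.014) and Dlgap2 (-0.056 to 0.029). The Gria1/Gria2 difference was -0.22 to -0.12 in this way. It was -0.17 without control 4 and 5, -0.10 without those and cKO 4, and -0.19 with permutation within the split, and passed in none of those 3. The ranges were 0.06 to 0.14 for Grin2b/Grin2a and 0.08 to 0.13 for Shank3/Shank1.

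The labels tie same-numbered libraries of the groups by nothing but the number. Their deviations from the group means correlated at 0.341, 0.497, 0.354, 0.0947, 0.0911 and 0.256 for numbers 1 to 6, and from the means within the split at 0.197, 0.455, 0.480, 0.0451, -0.0976 and 0.0344. As not every number passed 0.1, they were not taken as pairs, and 3 of 6 control libraries correlated best with their own number. A replicate block on these numbers called 118 genes and gave Grid2ip 1.43 (limma adjusted p = 0.00311). Depth limits Grin3b, at 26 reads in all, and leaves Grid2ip resting on 184 control reads.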
